A study of Homo sapiens with 288 samples.

Results

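DNA replication genes were followed in EC, endothelial cells, and in TB, cells resembling trophoblast, both derived from the human embryonic stem cell line H1 and sequenced as single cells. The 41 genes were chosen by name for their known roles at the origin, at the replication fork or at the entry into S phase. Of them, 38 had a row in the tables, out of 17492 protein-coding genes, and 3 were not analysed here. EC were made with BMP4 (5 ng/ml) and Activin A (25 ng/ml) in E8 medium for 2 days and then for 3 days with VEGF and WNT. TB were made with BMP4 (50 ng/ml) and SB431542 in E7, which is E8 medium without FGF2. All cells therefore come from 1 cell line, no separate cultures are named in the labels, and neither cell type has an untreated control here.

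The Fluidigm C1 device isolated each cell in a chamber of its own, full-length cDNA was amplified with the SMARTer kit and stored, and the same cDNA was later sequenced under 3 schemes, EQ, EQ-Vary and EQ-75%. In EQ the cDNA input of every cell was equalized before pooling at equal volume. EQ-Vary used scaled pooling volumes so that depth varied, and EQ-75% repeated EQ at lower depth. Each experiment held 45 EC and 51 TB libraries. A cell was kept when the log10 of its summed counts was at least 5.4, which left 39 EC and 48 TB cells in EQ, 38 and 46 in EQ-Vary, and 39 and 50 in EQ-75%. Summed counts of the kept cells ran from 336862 to 3966801 in EQ, with a median of 2007482 in EC and 1968545 in TB. The kept EC cells of EQ had 8750 ± 525 genes with at least 1 count (SD between cells, n = 39) and the TB cells 9274 ± 535 (SD, n = 48). EC 42 stands apart in EQ, with 47.6% of its counts in its 50 most abundant genes. The study's methods removed cells above 31%, a limit not applied here. The mean difference between TB and EC and several values of single genes or pairs are given with and without EC 42. Most other results, such as the correlations by role, are given with it only. All 15 listed endothelial markers had a higher mean level in EC. Of 13 listed trophoblast markers, 9 were higher in TB, and CDX2, a trophectoderm transcription factor, had counts in 2.08% of the TB cells.

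Replication begins when the origin recognition complex, CDC6 and CDT1 load the ring of MCM2 to MCM7 onto DNA, a step called licensing. MCM10, CDC45 and the GINS complex then turn that ring into an active helicase, and CLSPN links the fork to the checkpoint. Primase and polymerase alpha start each strand, polymerases epsilon and delta extend it, the clamp PCNA is placed by the RFC loader and holds the polymerases on the template, and FEN1 and LIG1 finish the lagging strand. RRM1, RRM2, TYMS and TK1 supply deoxynucleotides, while CHAF1A, CHAF1B and SLBP serve the deposition and supply of histones. Many of these genes are transcribed in waves by E2F factors around the G1 to S transition, so a cell outside that window is known to hold little of several of the mRNAs.

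The upstream sequences of the genes are shown because many of the genes are known as E2F targets. As described further on, the genes moved together over the TB cells and less so over the EC cells. RefSeq (GRCh38.p14) gave a start site for 33 of the 38, and the 250 bases before it were searched on both strands. The E2F words TTTCCCGC, TTTCGCGC, TTTGCCGC and TTTGGCGC occurred in 12 of the 33 windows (36.4%), beside 3.72% of the 15842 windows of the same length in the table. The NF-Y word CCAAT occurred in 20 of 33 (60.6%), beside 34.5%. The words TTTGAA and TTCGAA of the CHR element, a site of G2/M genes, occurred in 2 of 33 (6.06%), beside 11.9%. The 12 genes with an E2F word were CDT1, E2F1, GINS2, LIG1, MCM3, MCM6, MCM7, PCNA, POLA1, POLE, RFC3 and TYMS. A match describes letters and does not show binding.

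Printed here in lower case, 5′ to 3′ on the strand of the gene, with E2F, NF-Y and CHR words in capitals, are the windows of CLSPN and GINS2, whose levels followed the other members most closely among those with no annotated exon in the window. PCNA, which had the largest difference between TB and EC, and MCM6, which had the most E2F words, were added after their values had been seen. The CLSPN window is chr1:35769979-35770228 on the minus strand, GINS2 is chr16:85688955-85689204 on the minus strand, PCNA is chr20:5126627-5126872 on the minus strand, with the 4 bases nearest its start left out because an annotated exon covers them, and MCM6 is chr2:135876444-135876693 on the minus strand.
CLSPN: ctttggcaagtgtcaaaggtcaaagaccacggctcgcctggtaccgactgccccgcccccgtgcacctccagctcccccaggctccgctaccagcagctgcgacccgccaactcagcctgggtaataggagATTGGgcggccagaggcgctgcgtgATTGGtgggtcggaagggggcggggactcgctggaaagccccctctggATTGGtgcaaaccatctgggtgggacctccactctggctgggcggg
GINS2: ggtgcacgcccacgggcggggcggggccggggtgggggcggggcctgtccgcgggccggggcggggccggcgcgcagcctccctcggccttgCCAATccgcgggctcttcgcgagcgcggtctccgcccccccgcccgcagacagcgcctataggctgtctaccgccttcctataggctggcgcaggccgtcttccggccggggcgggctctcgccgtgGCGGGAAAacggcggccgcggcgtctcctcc
PCNA: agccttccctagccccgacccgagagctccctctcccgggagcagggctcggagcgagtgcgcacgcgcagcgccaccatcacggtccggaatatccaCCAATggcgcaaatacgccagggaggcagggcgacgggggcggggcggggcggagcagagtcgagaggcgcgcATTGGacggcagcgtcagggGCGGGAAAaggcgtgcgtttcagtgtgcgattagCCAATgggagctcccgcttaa
MCM6: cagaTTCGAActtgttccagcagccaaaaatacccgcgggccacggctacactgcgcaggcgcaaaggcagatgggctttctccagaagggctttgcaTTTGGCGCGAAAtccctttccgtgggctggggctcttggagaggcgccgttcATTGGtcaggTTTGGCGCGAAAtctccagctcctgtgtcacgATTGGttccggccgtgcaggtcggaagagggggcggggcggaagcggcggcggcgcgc
CLSPN had 3 NF-Y words and no E2F word. GINS2 had 1 of each, and its window lies within the GENCODE v44 extent of the gene, in no annotated exon. PCNA had 1 E2F word, which reads GCGGGAAA on this strand, and 3 NF-Y words. MCM6 had 4 E2F words because they overlap in pairs in TTTGGCGCGAAA at 2 places, beside 2 NF-Y words and 1 CHR word.

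Values of the genes were not equally specific, which bears on every result below. Where a read matches more than 1 gene, RSEM splits it between them, which leaves split counts, that is expected counts that are not whole numbers. In 11 genes, namely GINS3, CDC6, RFC2, GINS1, CDT1, ORC6, CHAF1B, ORC1, MCM4, RRM2 and GINS2, between 86.2% and 100% of the nonzero values in EQ were not whole. In the other 27 genes the share was 9.52% to 45%. Across the 14923 genes with any count, 44.1% had at least 50% of their nonzero values not whole. The same 11 genes were counted as detected, at a rounded count of at least 1, in 96.3% of their EC values and 96.6% of their TB values, against 49.3% and 62.8% in the 27. In 10 of the 11, windows of 51 bases of the canonical transcript were found in other genes with up to 2 mismatches, the setting of the alignment. ORC6 shared 11.4% of its windows with 1910 other genes, CHAF1B 12.3% with 1742 and RFC2 12.7% with 907, while GINS3 had no such window. Of the 27, 22 had none. CCNE2 (56.1%) and TYMS (52.7%) shared windows with 1 other gene each, PRIM1 (28%) with 2, MCM10 (0.333%) with 14 and CLSPN (6.44%) with 1960. Low counts of the 15 genes with shared windows, 10 among the 11 and 5 among the 27, can therefore not be told apart from reads of other genes. A whole value does not show that its reads fit 1 gene only. GINS3, detected in 82.1% of EC and 68.8% of TB cells, has no such window, and the source of its values that are not whole was not found. The division into 11 and 27 genes was made after the values had been seen.

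**Figure D1:**
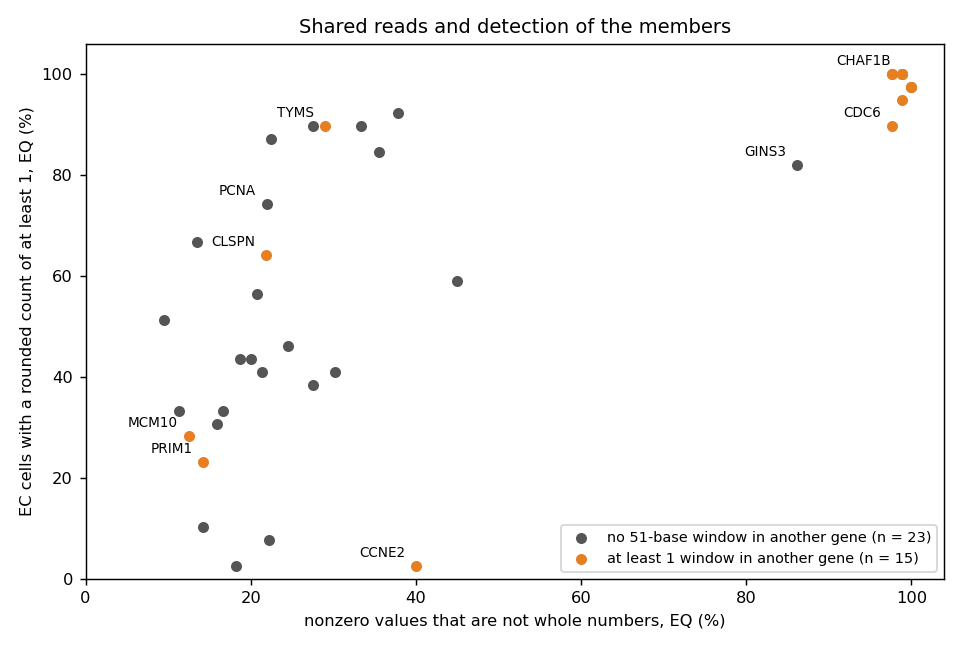
Share of the nonzero values of each gene that are not whole numbers in EQ (horizontal axis, %) against the share of the 39 EC cells in which its rounded count was at least 1 (vertical axis, %), with 1 point per gene and orange for the 15 genes that share at least 1 window of 51 bases with another gene. The 11 genes at or above 86.2% form a group at the upper right, apart from the 27 genes at or below 45%.

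A comparison of the cell types asks which replication genes were higher in TB or in EC. Most of them were higher in TB. Over the 38 genes, the mean of log2(CPM + 1) was 2.06 ± 0.64 in EC (SD between cells, n = 39) and 2.87 ± 1.24 in TB (SD, n = 48), where CPM is the rounded count scaled to a summed count of 1000000 in the cell. The mean difference was 0.80, and it was 0.82 without EC 42. TB was higher by at least 0.5 in 22 of the 38 genes (57.9%) and lower by that much in none, beside 27.6% of all 17492 genes higher and 14.4% lower. Among the 10008 genes detected in at least 50% of the cells of a type, 41.9% were higher in TB and 22% lower. Without EC 42 the count was 24. The median difference of the members was 0.70, against 0 over all genes. In EQ-Vary, 22 genes were higher in TB by at least 0.5 and GINS3 was lower (−0.68), beside 27.8% and 14.3% of all genes. In EQ-75%, 23 were higher and none lower, beside 28.2% and 12.7%. At a limit of 1 in EQ, 12 members were higher and none lower, beside 16.2% and 7% of all genes. Each cell type is 1 sample in each experiment and the experiments share their cDNA, so these differences have no replicate check and no test was made. Cell type, medium and culture cannot be told apart here.

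By means over cells, licensing genes showed the widest gap of the roles, with 8 of 10 past the limit and a median difference of 1.58. With medians over cells, the median difference was 0.86 for licensing and 1.31 for the group of PCNA, RFC, RPA2, FEN1 and LIG1. All of MCM2 to MCM7, the 6 subunits of the helicase ring, were higher in TB. MCM5 had a median of 0 CPM in EC and a range up to 360 CPM, but that value is EC 17 alone and the next EC cell had 11.1 CPM. In TB its lowest, median and highest values were 0, 0.829 and 564 CPM. The difference for MCM5 was 2.08, with 2.29 without EC 17 and 1.94 without TB 39. MCM3 ran from 0 over a median of 6.36 to 514 CPM in EC and from 0 over 83.8 to 850 CPM in TB, a difference of 1.77. MCM4, 1 of the 11 genes with mostly split counts, ran from 0 over 5.51 to 124 CPM in EC and from 0.571 over 28.3 to 496 CPM in TB, a difference of 1.96. The ranges of each of these genes overlap between the cell types.

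MCM2 was at or above 10 CPM in a single EC cell, EC 15 with 387 CPM, and in 12 of 48 TB cells. Its median was 0 CPM in EC and 0.808 CPM in TB, and its highest TB value was 465 CPM. MCM7 ran from 0 over 2.49 to 869 CPM in EC and from 0 over 45.2 to 613 CPM in TB. MCM6 had the smallest difference of the ring, 0.70, with medians of 0 and 0.463 CPM and highest values of 260 CPM in EC 43 and 436 CPM in TB. Counted per cell, at most 4 of the 6 ring genes reached 10 CPM together in an EC cell, and 10 of 39 EC cells had none. In TB, 5 of 48 cells had all 6 and 1 had none.

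Compared per kilobase of the canonical transcript, the ring genes were not at equal levels. Mean values in TB were 43.7 CPM per kb for MCM3, 43.3 for MCM7, 20.6 for MCM4, 12.9 for MCM5, 12.3 for MCM2 and 11.3 for MCM6. In EC they were 28.5 for MCM7 and 26.3 for MCM3, and between 2.81 and 3.82 for the other 4. For 3 of these 4 the EC mean rested on single cells. Without EC 15 the mean of MCM2 went from 10.2 to 0.318 CPM, without EC 17 that of MCM5 from 9.72 to 0.508 CPM, and without EC 43 that of MCM6 from 14.3 to 7.85 CPM, so no order among them can be read in EC. Neighbours in this order, such as MCM3 and MCM7, differ by far less than the SD between cells, which for MCM3 in TB was 169 CPM around a mean of 134 CPM. The loading factors CDC6, ORC6, ORC1 and CDT1 all belong to the 11 genes with mostly split counts. CDC6 differed by 1.47, with medians of 3.76 CPM in EC and 4.84 CPM in TB, and its highest value was 25.8 CPM in EC and 769 CPM in TB. The difference for CDC6 thus lies in its upper range rather than its median. ORC6 differed by 0.76, CDT1 by 0.31 and ORC1 by −0.01.

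Among the helicase activators, CDC45 and MCM10 were low or absent in most cells of both types. CDC45 was detected in 4 of 39 EC cells (10.3%, exact 95% binomial interval 2.87% to 24.2%), always under 1 CPM, and in 10 of 48 TB cells (20.8%, 10.5% to 35%), 7 of which had at least 10 CPM and the highest 161 CPM. MCM10 reached at most 5.60 CPM in EC, with 11 cells detected, and 371 CPM in TB, with 21 cells detected and 6 at or above 10 CPM. Both medians were 0 in both cell types, and the differences were 0.82 for CDC45 and 0.87 for MCM10. GINS1 had the opposite form, with counts in every cell, medians of 23.7 CPM in EC and 23.5 CPM in TB and a difference of −0.05. GINS3 had the lowest difference of all members, −0.44, with medians of 1.56 CPM in EC and 0.587 CPM in TB. A single TB cell, TB 20 with 317 CPM, carried 80.1% of the summed GINS3 values of TB, and without it the difference was −0.60. Without EC 2, the highest EC cell, it was −0.34. GINS2 stood at 0.48, just inside the limit, and at 0.64 without EC 42, whose 597 CPM was the highest value in either type. Without TB 19 GINS2 stood at 0.36. CLSPN stood at 0.44, at 0.59 without EC 15 and at 0.31 without TB 29.

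Of the polymerase genes, POLD3, an accessory subunit of polymerase delta, had the largest difference, 1.92. It ran from 0 over 0.252 to 93.6 CPM in EC and from 0 over 4.23 to 218 CPM in TB, and it was detected in 51.3% of EC and 89.6% of TB cells. PRIM1, the catalytic subunit of primase, had a highest value of 13.5 CPM in EC and 410 CPM in TB, with medians of 0 and 0.379 CPM and a difference of 1.2. POLE, the catalytic subunit of polymerase epsilon, stood at 0.58, at 0.46 without TB 44 and at 0.77 without EC 3. POLE2 (0.30) and POLA1 (0.32), which belong to polymerases epsilon and alpha, were inside the limit.

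PCNA, the sliding clamp, had the largest difference of all members. It ran from 0 over a median of 0.773 to 372 CPM in EC and from 0 over 31.6 to 565 CPM in TB, and at least 10 CPM was reached in 9 of 39 EC and 28 of 48 TB cells. The difference in EQ was 2.38, with 2.20 in EQ-Vary and 1.98 in EQ-75%. RFC5, a subunit of the clamp loader, ran from 0 over 0 to 346 CPM in EC and from 0 over 2.85 to 260 CPM in TB, a difference of 1.89. RFC3, another loader subunit, differed by 0.70 on the log2 scale although its mean CPM was higher in EC, 58.6 against 24.4. That mean rested on EC 42 with 1567.5 CPM, and without it the EC mean was 18.9 CPM and the difference 0.92. RPA2, which coats single-stranded DNA, had medians of 15.3 CPM in EC and 80.7 CPM in TB and a difference of 1.08. FEN1, the flap nuclease, was nearly level, with medians of 0.639 and 0.641 CPM, highest values of 367 and 281 CPM and a difference of 0.17. LIG1 (0.48) and RFC2 (0.34) were inside the limit, and LIG1 stood at 0.64 without EC 37 and at 0.34 without TB 30.

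Nucleotide synthesis genes were divided. RRM1, the large subunit of ribonucleotide reductase, had medians of 4.28 CPM in EC and 36.1 CPM in TB and differed by 1.05. RRM2, the small subunit and 1 of the 11 genes with mostly split counts, had medians of 12 and 14.1 CPM and differed by 0.53. Its difference was 0.43 without TB 43 and 0.66 without EC 15. TK1, the thymidine kinase of cycling cells, differed by 0.89. TYMS, which makes thymidylate, was at −0.03. It was detected in 89.7% of EC cells and 70.8% of TB cells, with medians of 2.52 and 0.945 CPM, yet 8 of 39 EC and 17 of 48 TB cells had at least 10 CPM.

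G1/S regulators were scarcely detected. CCNE1 was found in 1 of 39 EC cells, EC 19 with 14.9 CPM, and in 10 of 48 TB cells, at most 12.6 CPM. CCNE2 was found in 1 EC and 4 TB cells, at most 9.19 CPM. E2F1, itself an activator of S-phase genes, was found in 3 EC and 6 TB cells, at most 55.0 and 55.1 CPM. The differences were 0.30, 0.15 and 0.22, all inside the limit. At this depth a level under about 1 count per cell was not detectable. Of the histone genes, SLBP, which binds histone mRNA, differed by 0.91 and CHAF1A, the large subunit of chromatin assembly factor 1, by 0.86. Without EC 42, the highest EC cell for both, SLBP differed by 1.07 and CHAF1A by 0.99. Without TB 39, the highest TB cell for both, these were 0.82 and 0.73. CHAF1B, its partner subunit and 1 of the 11 genes with mostly split counts, had counts in every cell, medians of 51.8 CPM in EC and 41.8 CPM in TB, and a difference of −0.29.

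**Figure D2:**
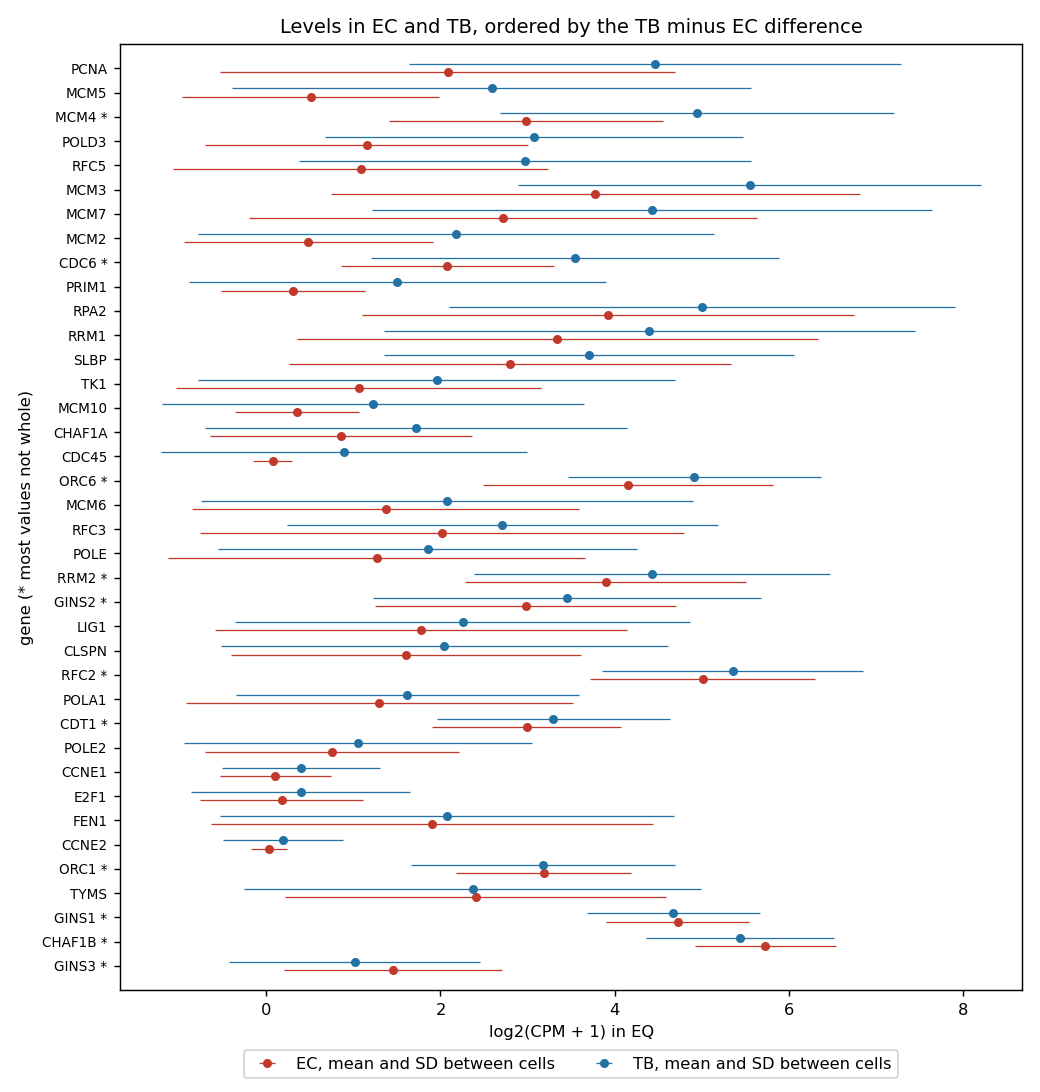
Mean and SD between cells of log2(CPM + 1) in EQ for each gene in 39 EC cells (red) and 48 TB cells (blue), ordered from the largest TB minus EC difference at the top to the lowest at the bottom, with an asterisk for the 11 genes whose values were mostly not whole. PCNA, at 2.08 in EC and 4.46 in TB, leads the order, GINS3 closes it, and the SDs of the cell types overlap in every gene.

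Detection followed the same direction. The genes were detected in 62.9% of the EC values and 72.6% of the TB values, beside 50.0% and 53.0% over all genes. A count of 1 is weak evidence of expression in these libraries. The 15 endothelial markers had at least 1 count in 52.6% of the TB values. At 10 CPM the endothelial markers remained in 8.19% of the TB values, and the replication genes in 26.2% of EC and 39.7% of TB values. The 27 genes with mostly whole values stood at 16.9% in EC and 31.7% in TB at that level. For G1/S regulators these shares were 1.71% and 2.78%, so at 10 CPM they lay below the endothelial markers in TB. Thinned to 250000 counts per cell, detection at 1 count was 42.8% in EC and 54.8% in TB.

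TB cells were spread more widely than EC cells. The mean over the 38 genes, called the replication score here, ran from 1.04 over a median of 1.87 to 3.91 in EC and from 1.63 over 2.35 to 6.13 in TB. TB 30 (6.13) and TB 19 (6.03) were highest, followed by TB 39 (5.74), TB 43 (5.54) and TB 29 (5.5). Both leading cells held this place in the other experiments, TB 30 with 6.18 in EQ-Vary and 6.08 in EQ-75%, and TB 19 with 6.09 and 6.07. EC 15 was the highest EC cell, with 3.91, 3.90 and 3.71 in the same order of experiments. TB 19 had at least 10 CPM in 32 of the 38 genes, where the median TB cell had 13, the median EC cell 9 and EC 15 19. The number of genes with at least 1 count varied less, from 19 to 29 per EC cell and from 21 to 37 per TB cell.

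**Figure D3:**
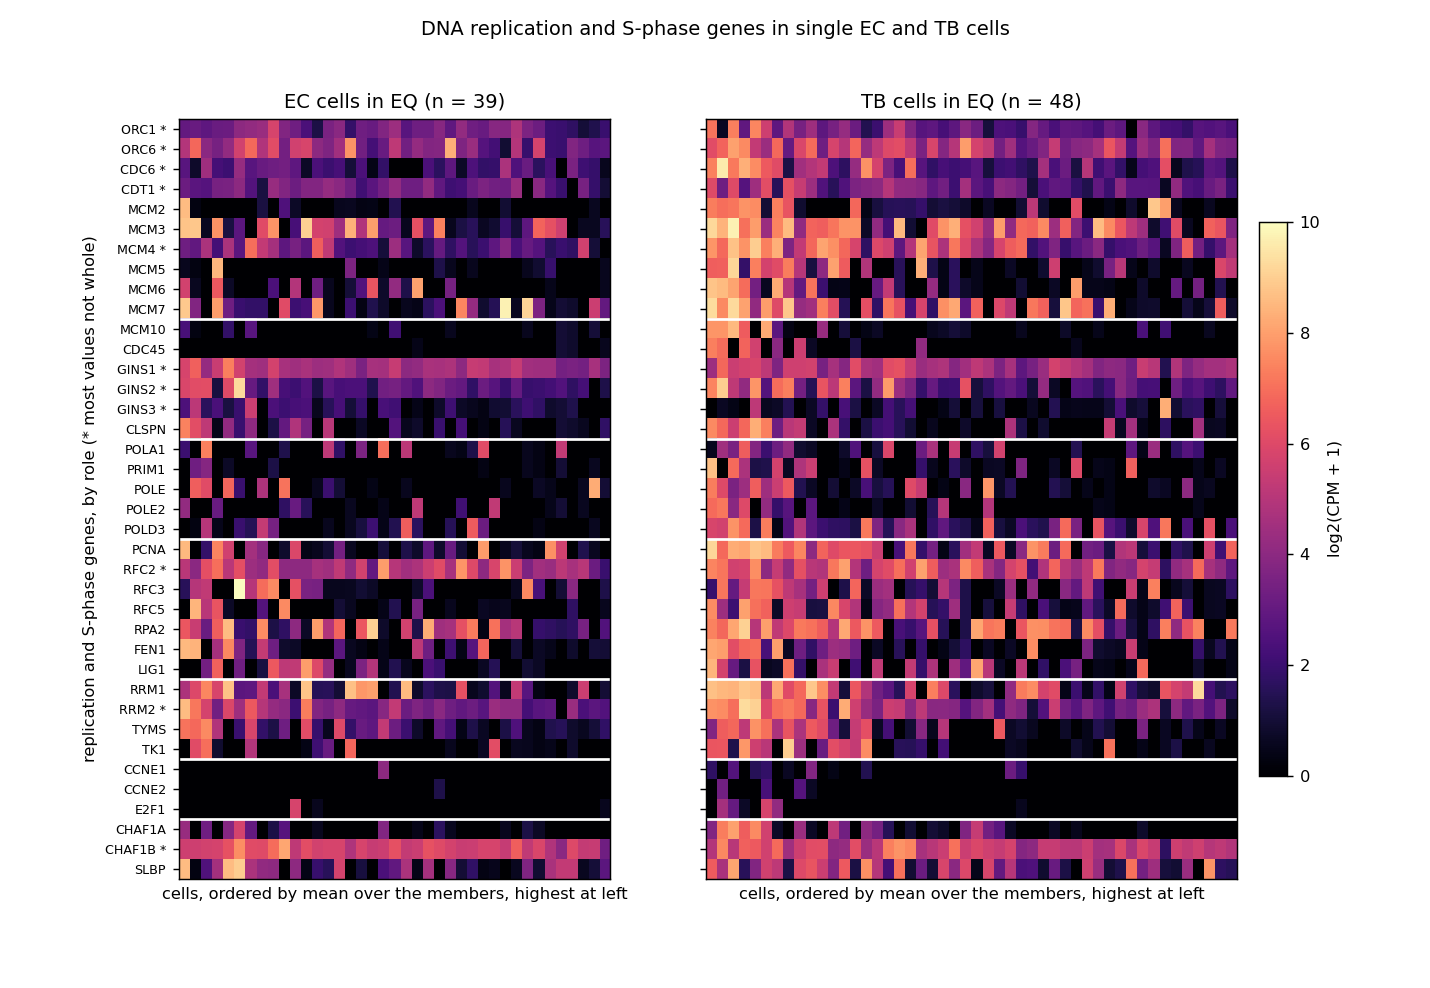
Level of each of the 38 genes, as log2(CPM + 1) from 0 (black) to 10 (pale), in the 39 EC cells (left) and 48 TB cells (right) of EQ, with genes in rows grouped by role and cells in columns ordered by their replication score. The TB cells at the left, led by TB 30 with a score of 6.13, are bright in most rows, while rows such as GINS1 and CHAF1B are even across all cells and CCNE1, CCNE2 and E2F1 are dark in nearly all.

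Genes can differ between cell types without varying together, so their correlation over the cells of 1 type was computed. These correlations describe cells that share a culture, a library pool and a range of depths, and they carry no p. The median Pearson correlation over the 703 pairs of genes was 0.289 in the 48 TB cells and 0.0767 in the 39 EC cells. Over all pairs of genes detected in at least 50% of the cells, the median was 0.0193 in TB and 0.0275 in EC. Restricted in the same way, the members had a median of 0.278 in TB and 0.137 in EC. The member shares that follow were not restricted. Positive pairs were 93.6% in TB and 66.4% in EC, beside 54.7% and 56.2% over all genes. A correlation of at least 0.5 was reached by 72 pairs in TB (10.2%) and 20 in EC (2.84%), beside 0.782% and 0.631% over all genes. Leaving out any 1 cell kept the median over the 703 pairs between 0.259 and 0.297 in TB and between 0.0564 and 0.0899 in EC. In the 27 genes with mostly whole values it was 0.297 in TB and 0.0378 in EC. After a linear fit on depth and genes detected it was 0.265 and 0.0434.

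Highest among the pairs in TB were MCM10 with POLE2 (0.735), MCM10 with E2F1 (0.718), CDC45 with FEN1 (0.681) and CDC6 with MCM10 (0.655). Leaving out 1 TB cell lowered the first to 0.678 at the least and the second to 0.640. MCM10, POLE2, CDC45 and E2F1 had a median of 0 CPM in TB, whereas CDC6 had counts in all 48 TB cells and FEN1 in 33. In TB 19 all 6 of these genes were above 10 CPM, but CDC45 was at 0 in TB 39 and E2F1 at 0 in TB 30. In EC the highest pairs were GINS2 with CHAF1A (0.710), GINS1 with FEN1 (0.688), RRM2 with TYMS (0.644) and CLSPN with RRM2 (0.639). The first of these was 0.576 without EC 42, and the pair of CLSPN and RRM2 was 0.532 without EC 15. In several of these pairs 1 partner belongs to the 11 genes with mostly split counts.

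RRM2, CLSPN, GINS2, TYMS, FEN1 and CHAF1A followed the mean of the other members most closely when the lower of both cell types was taken. RRM2 had 0.678 in EC and 0.784 in TB, CLSPN 0.631 and 0.744, and FEN1 0.533 and 0.711. FEN1 and TYMS thus tracked the other genes over cells of both types although their mean levels were nearly equal in EC and TB. The lowest were CDC45, CCNE2, CCNE1, GINS3, POLA1 and E2F1. CDC45 had −0.346 in EC, where it rested on 4 cells with less than 1 CPM, and 0.723 in TB. GINS3 had 0.524 in EC and −0.0432 in TB, POLA1 had 0.00240 and 0.358, and E2F1 had 0.0121 and 0.560. In sparse genes a low correlation is no finding.

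By role, the mean of each group was set against the mean of the remaining members. In TB this correlation was 0.884 for the helicase activators, 0.856 for licensing, 0.818 for nucleotide supply, 0.785 for the clamp group, 0.715 for the polymerases, 0.640 for the histone genes and 0.621 for the G1/S regulators. In EC it was 0.675 for the clamp group, 0.672 for the helicase activators, 0.510 for nucleotide supply, 0.453 for licensing, 0.450 for the histone genes, 0.243 for the polymerases and −0.0411 for the G1/S regulators. Each value was higher in TB than in EC, with no test of the difference.

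**Figure D4:**
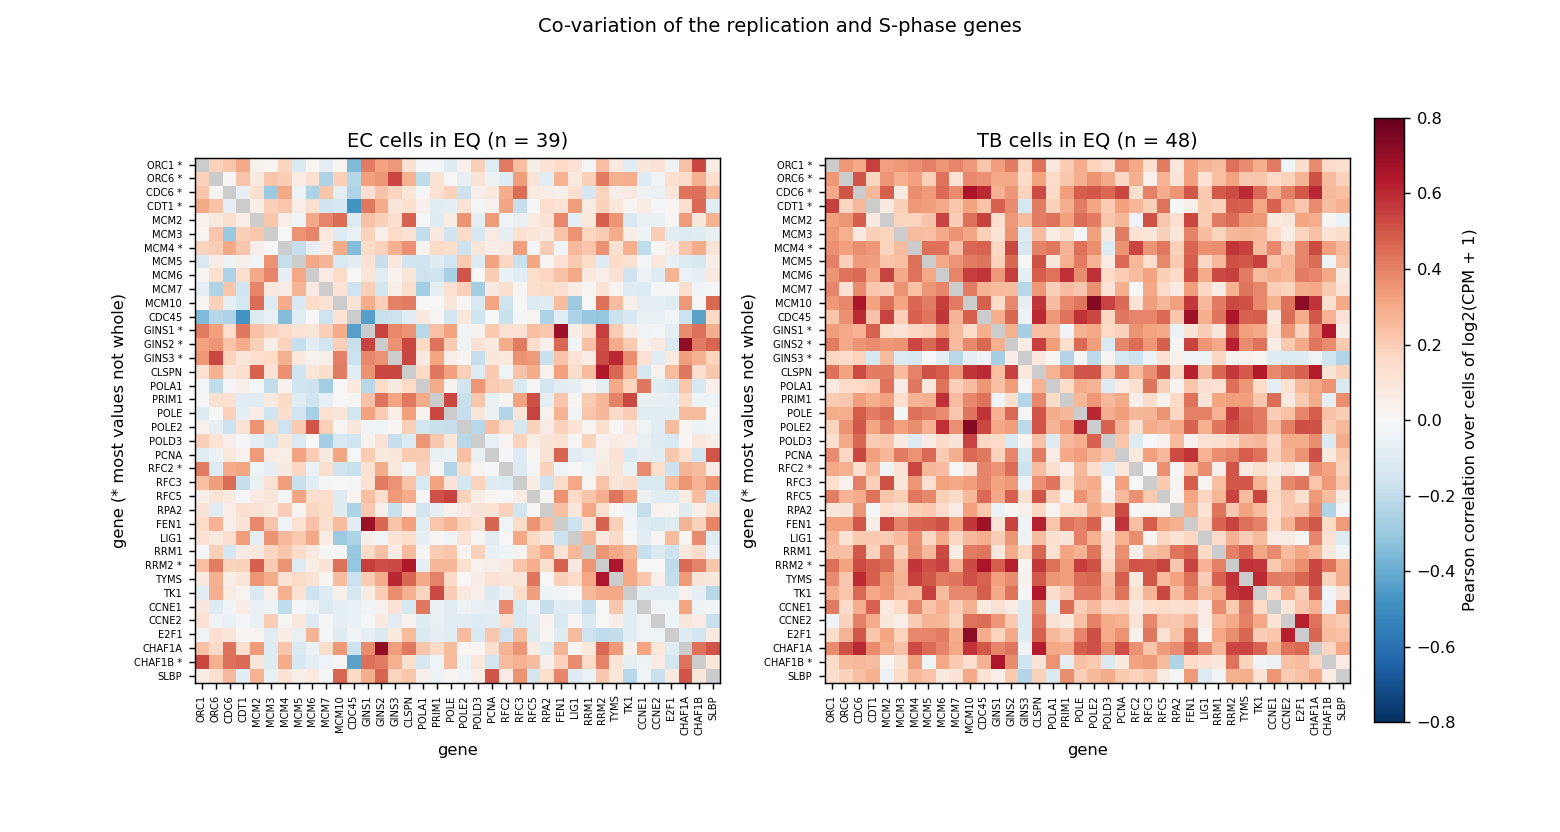
Pearson correlation of log2(CPM + 1) over cells for every pair of the 38 genes in 39 EC cells (left) and 48 TB cells (right) of EQ, from −0.8 (blue) to 0.8 (red), with an asterisk for the 11 genes whose values were mostly not whole. The TB panel is red in 93.6% of the pairs, with GINS3 as a pale row, and the EC panel is mixed, with CDC45 as a blue row.

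S-phase genes were compared with 30 genes known to peak in G2 and mitosis, such as CDK1, CCNB1 and the kinesins, to ask whether the same cells held both. The replication score and the mean of the G2/M genes correlated with r = 0.61 (Spearman 0.486) over the 39 EC cells and r = 0.73 (Spearman 0.731) over the 48 TB cells. Without the 2 cells farthest from the median score, r was 0.576 in EC and 0.705 in TB. Single cells departed from this line in both directions. TB 34 had a G2/M mean of 7.5 with a replication score of 3.98, while TB 18 had 2.53 with 4.74. EC 12 and EC 6 had G2/M means of 8.73 and 8.27 with replication scores of 3.37 and 3.23. EC 17 had nearly the same replication score, 3.22, with a G2/M mean of 0.452, the lowest of all kept cells. The replication score correlated with log10 of the summed counts at −0.0917 in EC and 0.0752 in TB, and with the number of detected genes at 0.365 and 0.321. Under the linear fit on depth and genes detected, the correlation with the G2/M mean was 0.536 in EC and 0.693 in TB. Of the 30 G2/M genes, 9 were higher in TB by at least 0.5 (30%) and 2 lower, BIRC5 and HJURP, the pair being named after their values were seen. That share is near the 27.6% over all genes.

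Other replication factors, a list of 41 further genes with a row, went the same way as the 38. Of them 24 (58.5%) were higher in TB and 4 (9.76%) lower, beside 27.6% and 14.4% of all genes. The mean of the 41 genes correlated with the replication score at 0.675 in EC and 0.815 in TB. POLE4 (3.46), POLD2 (2.86) and HELLS (2.73) had the largest differences, the first 2 being polymerase subunits and HELLS a chromatin remodeller. The 4 lower genes, named after their values were seen, were DCTPP1 (−1.49), MCMBP (−1.11), POLA2 (−0.83) and TOPBP1 (−0.65). In the list of 21 E2F and G1 regulators, 10 were higher and 3 lower, and their mean correlated with the score at 0.286 in EC and 0.703 in TB. CDK6, a partner of the D-type cyclins, had mean levels of 67.9 CPM in EC and 597 CPM in TB. CCND1, cyclin D1, had 183 CPM in EC and 5.89 CPM in TB, a difference of −6.07. SKP2, a subunit of an S-phase ubiquitin ligase, differed by 2.48. Of 5 listed CDK inhibitors, CDKN1C was higher in TB (2.30), CDKN2D lower (−1.77) and 3 inside the limit.

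Cell identity genes followed the replication score differently. The mean of the endothelial markers correlated with it at −0.331 in EC and −0.000628 in TB, FLI1 in EC at −0.54 being the lowest of the 15. The mean of the trophoblast markers correlated at 0.304 in EC and −0.0796 in TB. The mean of 7 pluripotency genes correlated at 0.484 in EC and 0.00370 in TB, NANOG at 0.55 and POU5F1 at 0.47 in EC, and all values of both genes were not whole. Against the mean of the 27 members with mostly whole values, the EC correlations were −0.271 for the endothelial, 0.114 for the trophoblast and 0.340 for the pluripotency genes. Immediate early and stress genes, which respond to handling, were higher in TB in 8 of 10 cases, beside 27.6% of all genes. The mean of these 10 genes correlated with the score at 0.078 in EC and −0.041 in TB. Their part in the TB difference was not tested.

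Among the 8256 other genes detected in at least 50% of the cells of both types, 13 (0.157%) correlated with the replication score at 0.5 or more in both, and the median correlation was 0.0974 in EC and 0.0308 in TB. By the lower of both values the first were CENPU (0.739 in EC and 0.759 in TB), KIF15 (0.766 and 0.676), BRCA2 (0.699 and 0.662), KIF20B (0.744 and 0.649) and ATAD5 (0.626 and 0.650). MAD2L1, BUB1, NCAPG, CCNF and SHCBP1 came next, at 0.527 or more in EC and 0.533 or more in TB. At the other end were UBL5 (−0.424 and −0.330), FAM107B (−0.392 and −0.301), SERINC5 (−0.437 and −0.261), PTPRF and MAD2L1BP. For BRCA2, ATAD5, MAD2L1, CCNF and SHCBP1 at least 94.4% of the nonzero values were not whole.

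**Figure D5:**
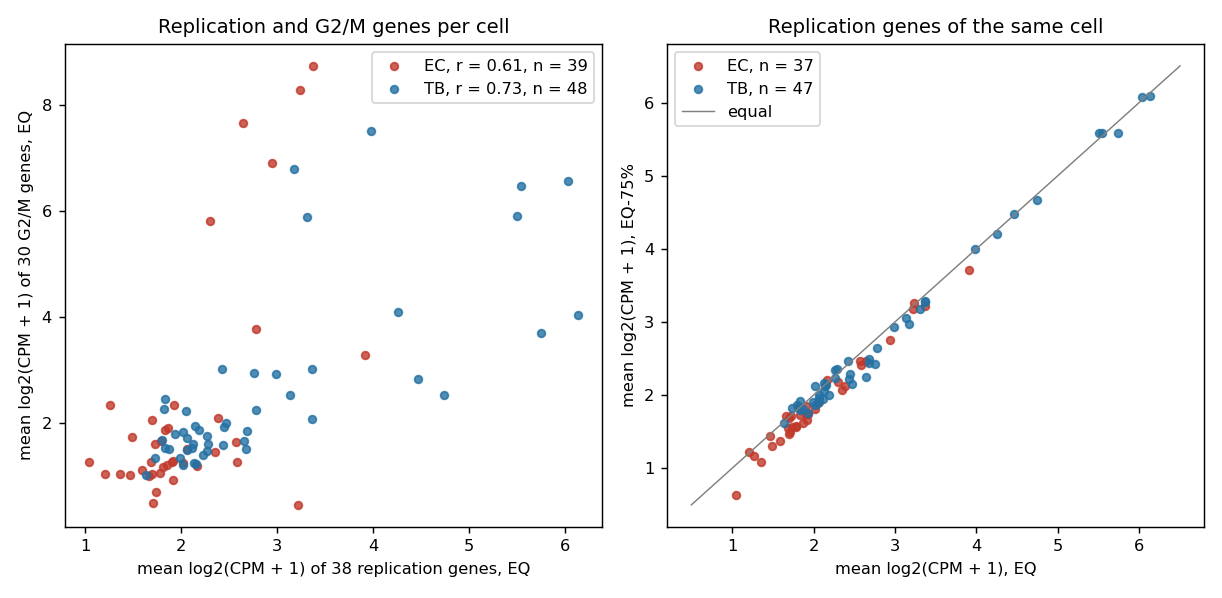
Left, the replication score of each cell (mean log2(CPM + 1) of 38 genes) against the mean of 30 G2/M genes in EQ for 39 EC (red) and 48 TB cells (blue), with r = 0.61 and 0.73. Right, the replication score of the same cell in EQ and in EQ-75% for the 37 EC and 47 TB cells kept in both, with a line of equality that the points follow up to TB 30 at 6.13 and 6.08.

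Variation between cells was also set against the level of each gene, since low genes vary more on the log scale. The variance of log2(CPM + 1) was divided by a trend fitted over all genes on their mean. It lay above the trend in 18 of the 36 genes with a value in EC (50.0%) and in 26 of 38 in TB (68.4%), beside 52.4% of all genes in EC and 52.2% in TB. The EC share is near that background. In both cell types 16 genes lay above it. Genes with mostly whole values made up all 18 in EC, of 25 with a value, and 24 of the 26 in TB, against 0 and 2 of the 11 genes with mostly split counts. MCM3 had the highest ratio by the lower of both types, 1.78 in EC and 1.92 in TB. It was followed by RRM1 (1.65 and 1.93), RPA2 (1.57 and 1.99) and MCM7 (1.54 and 2.15). GINS1 (0.147 and 0.214), CHAF1B (0.170 and 0.310), CDT1 (0.212 and 0.327) and ORC1 (0.184 and 0.420) had the lowest ratios, all among the 11.

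Finally, the same cells were compared between experiments, which asks how far pooling and depth moved the genes. Over 84 cells kept in both, a cell had 2.05 ± 2.62 more of the genes detected in EQ than in EQ-75% (SD between cells, n = 84), with 3.16 ± 2.54 in EC (n = 37) and 1.17 ± 2.36 in TB (n = 47). Depth fell further in EC than in TB. The median summed count of the kept cells was 2007482 in EQ and 1499284 in EQ-75% for EC. For TB it was 1968545 and 1765246. EQ exceeded EQ-Vary by 1.01 ± 2.80 (n = 84). Both gaps were smaller at equal depth or a higher limit. With every library thinned to 250000 counts they were 0.726 for EQ-75% and 0.226 for EQ-Vary, and with detection at 10 CPM they were 0.5 and 0.0119. All of these except the EC gap to EQ-75% are below the SD between cells, which does not measure how regular a shift was. Against EQ-75%, 31 of 37 EC cells had more of the genes detected in EQ and 5 had fewer. In TB these were 26 and 13 of 47 cells. Against EQ-Vary, 47 of the 84 cells had more in EQ and 26 had fewer. Of the 38 genes, 32 were detected in more cells in EQ than in EQ-75% and 2 in fewer, beside 64.1% and 12.2% of the 15003 genes detected in either. For EQ-Vary the counts were 23 and 9, beside 49.7% and 22.7% of the 15034 genes detected in either. PRIM1 moved most, being detected in 41.7% of the 84 cells in EQ and 23.8% in EQ-75%. FEN1 went from 67.9% to 53.6%, POLE from 53.6% to 39.3% and TYMS from 78.6% to 66.7%. Against EQ-Vary, POLE did not keep this direction, with 53.6% in EQ and 56.0% in EQ-Vary.

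These moves concerned very low counts. Detection was the same in EQ and EQ-75% for 84.6% of the 3192 gene and cell combinations, beside 91.3% over all genes, and a gene detected in EQ alone had a median count of 1 and at most 13. Levels moved little. The replication score of a cell correlated between EQ and EQ-75% at 0.987 in EC and 0.996 in TB, and it was 0.11 ± 0.12 higher in EQ (SD, n = 84). The correlation of CDC45 over EC cells was −0.0554 between EQ and EQ-75% and 0.987 over TB cells. In those EC cells the gene had never exceeded 0.972 CPM in EQ.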

How the data were processed

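Expected counts of 17492 protein-coding genes were analysed for 96 cells in each of 3 experiments, 288 libraries in all. The deposited expected counts were made by the authors with RSEM 1.2.31 from reads cut to 51 bp and aligned by Bowtie 1.2.3, allowing 2 mismatches, to the Ensembl protein-coding genes of GRCh38, and were not normalized. A read that fits several genes is divided between them, so values need not be whole. The Ensembl version is not given in the sources used here. The study's methods state that doublets and dead cells had been removed by image. The unequalized libraries were not analysed here.

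Expected counts were rounded, scaled to CPM and taken as log2(CPM + 1). Cells with a log10 summed count under 5.4 were left out. The 41 genes, the other lists and the rule for named genes were chosen with earlier results of these data known. The rule named the 6 members with the largest and the lowest differences between TB and EC, the 6 with the highest and the lowest correlation with the other members, the 4 highest and lowest in variance over the trend, the 4 whose detection moved most between experiments, MCM2 to MCM7 and the extremes of the other lists. The limit of 0.5 on a difference is a size and not a test, since each cell type in an experiment is 1 sample and cells are not replicates. SDs are between cells, intervals are exact binomial (95%) and cover counting error only, and the precision of a gene with 1 count is poor at a median of 2007482 (EC) and 1968545 (TB) counts per cell. No 2 cells of an experiment correlated above 0.848. The trend was a lowess fit (span 0.3) over genes with a mean of at least 0.1. Thinning, pair correlations and the trend were tested on simulated data. Windows of the canonical transcript of each member were searched with blastn 2.17.0 in the protein-coding transcripts of GENCODE v44. The coordinates of genes are from the same annotation. The median pair correlation over all genes covers genes detected in at least 50% of the cells. Computations used Python 3.11.15, numpy 2.4.6, pandas 2.3.3, scipy 1.17.1 and statsmodels 0.14.6.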

Additional observations from a re-analysis of the deposited data

How the results depend on the processing

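Over 13 results, 119 alternative values were computed, 20 of them chosen after the data were seen. Of these, 105 stayed within the spread between cells (1 SD), within 0.1 for a correlation or within 1.5 times for a count. The other 14 moved further. Some of these limits were wider than the value itself. The gaps of EQ to EQ-75% and EQ-Vary were 2.05 and 1.01 members with SDs of 2.62 and 2.80. The EC median correlation was 0.0767 with a limit of 0.1. For these results even a complete loss of the value would have counted as staying. No difference or correlation turned its sign, while counts and shares of detection have no sign that could turn. The number of members higher in TB was 12 at a limit of 1 and otherwise 18 to 25. The number lower was 1 in EQ-Vary, 2 with a pseudocount of 0.1 and 2 with medians over cells. Detection in EC was 54.7% in EQ-75%, 42.8% after thinning, 41.2% at 5 counts, 49.3% in the 27 members with mostly whole values and 26.2% at 10 CPM. Detection in TB was 54.8% after thinning, 53.0% at 5 counts and 39.7% at 10 CPM. The correlation of the replication score with the G2/M mean in EC was 0.486 by Spearman. With a pseudocount of 0.1, 8 members lay above the variance trend in both cell types. Without the replicate block, that is with cells not paired by number, members detected per cell differed by 2.05 for EQ-75% and 0.979 for EQ-Vary. Over the same cells, a mean of paired differences equals a difference of means. The values could thus change only through cells kept in 1 of the experiments, and this alternative does not test the pairing. After thinning these differences, with pairing, were 0.726 and 0.226, at 5 counts 1.58 and 0.393, and at 10 CPM 0.5 and 0.0119. All of these are counted among the 105. The causes of these moves were not tested. Depth limits the scarce genes, where 1 count decides detection, and leaving out 1 cell moved the mean CPM of a type by over 1.5 times for MCM2, MCM5, MCM6, CDC45, GINS2, GINS3, CLSPN, PRIM1, POLE, RFC3, RFC5, LIG1, CCNE1, CCNE2, E2F1 and CHAF1A.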
